A study of Mus musculus with 2 samples.

Results

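The cells described here are mammary basal cells with little smooth muscle RNA: the 25% of basal cells in each library with the lowest share of UMIs from 8 contractile genes. They number 2415 cells, 1009 from the Ehf knockout library and 1406 from the wild type library, out of 9661 basal cells ranked and 16026 cells kept in the whole series. They are called the low set below, the 25% with the highest share the high set, and the rest the middle cells. The study profiled single cells of mouse mammary glands at 18.5 days of pregnancy, sorted without Ter119, CD31 or CD45 on the surface, to compare mice with and without deletion of Ehf, an epithelial transcription factor. There was 1 library of each strain, labelled EhfKO and WT, all animals were adult and pregnant, and the thoracic and inguinal glands of 2 females were pooled for each. The labels do not say which part of Ehf is deleted or in which cells. With 1 library per genotype there is no replicate and no test, so differences are given as sizes with 95% intervals that cover counting error only.

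Basal cells, also called myoepithelial cells, wrap the milk-making luminal cells of the mammary gland and rest on the basement membrane. When suckling releases oxytocin, its receptor on these cells sets off calcium signalling, myosin is phosphorylated, and the cells squeeze milk into the ducts. They keep epithelial keratins such as keratin 14 and keratin 5 while making smooth muscle proteins, and in the adult gland they also supply matrix and secreted signals to the luminal layer. Smooth muscle genes in general are switched on by the serum response factor (SRF), which binds the CArG box.

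A cell entered the ranking when it had at least 1000 UMIs (unique molecular identifiers, each counting 1 captured transcript), at least 500 genes and at most 20% mitochondrial UMIs. Its sum of Krt14, Krt5, Krt17, Acta2, Myh11 and Mylk UMIs had to be at least 5 and above its sum of the luminal genes Krt8, Krt18, Krt7, Krt19, Cldn3 and Cldn4. Cells with 3 or more UMIs of 8 proliferation genes, or with 2 or more of Igfbp3, were set aside. The ranking used Acta2 (smooth muscle actin), Tagln, Cnn1, Myh11 (smooth muscle myosin heavy chain), Mylk (myosin light chain kinase), Myl9, Tpm2 and Actg2. The members were thus chosen by the measured share of these genes, and what these genes show is the rule itself and no finding.

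RefSeq promoter windows, of 250 bases before to 50 bases after a start on the GRCm38.p6 build, were found for 5 of the 8 genes. The window was missing from the table for Tagln, Myh11 and Actg2. An exact CArG box, a pattern that reads the same on both strands, was present in 1 of those 5, that of Myl9, and in 1.63% of all 32851 windows. The Myl9 stretch is shown because it holds that box, and the Acta2 sites because they are the closest matches at the gene with the most UMIs of the 8. Capitals mark the exact box in Myl9 (the first of its pair) and sites that differ from a box at 1 base (the second in Myl9 and both in Acta2). The exact box or such a near match was present in 9.98% of all windows. The Myl9 stretch, at chr2:156775214-156775407 on the plus strand, ends at the base before the annotated start of Myl9. The Acta2 sites, at chr19:34255438-34255467 and chr19:34255388-34255417 on the minus strand, lie inside the first exon of 1 annotated Acta2 transcript and upstream of the start that the window is built on.
Myl9: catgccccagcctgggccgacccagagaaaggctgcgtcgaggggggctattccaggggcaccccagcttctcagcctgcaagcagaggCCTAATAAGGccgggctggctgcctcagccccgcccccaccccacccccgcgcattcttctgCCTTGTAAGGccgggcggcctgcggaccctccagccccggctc
Acta2, distal site: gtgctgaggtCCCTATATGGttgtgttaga
Acta2, proximal site: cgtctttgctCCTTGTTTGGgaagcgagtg
Among 25 further smooth muscle genes, 23 had a window, and Cnn2, Fhl2, Ldb3, Myl6 and Vcl held an exact box, in 7 of 31 windows. Of the 12 genes named below as lowest in these cells, 11 had a window and Fbxl22 held the box.

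Acta2 alone, which helped to choose the cells, was at 6403 and 8301 scaled CPM (a depth-scaled UMI level, defined below) in the low sets of the knockout and wild type libraries and at 27141 and 31187 in the high sets. The contractile share had a median of 1.56% of a cell's UMIs in the low set of the knockout library, 3.03% in its middle cells and 5.33% in its high set. In the wild type library the medians were 2.17%, 4.195% and 6.28%. The knockout cells at the limit stood at 2.083% just inside and 2.084% just outside, and 436 knockout cells lay within 10% of the limit. In the wild type the last cell inside and the first cell outside both stood at 2.973%, and 629 cells lay that near. The distribution had 1 peak in each library and no gap at the limit, so the low set is a range of this share. No clustering was run, so whether the range holds a separate cell type was not tested. Of knockout basal cells, 48.6% (47.0 to 50.1%, Clopper-Pearson) were at or under the wild type limit, and after thinning each cell to 1000 UMIs the share was 48.1%. The low set thus lay at lower contractile shares in the knockout than in the wild type library.

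**Figure D1:**
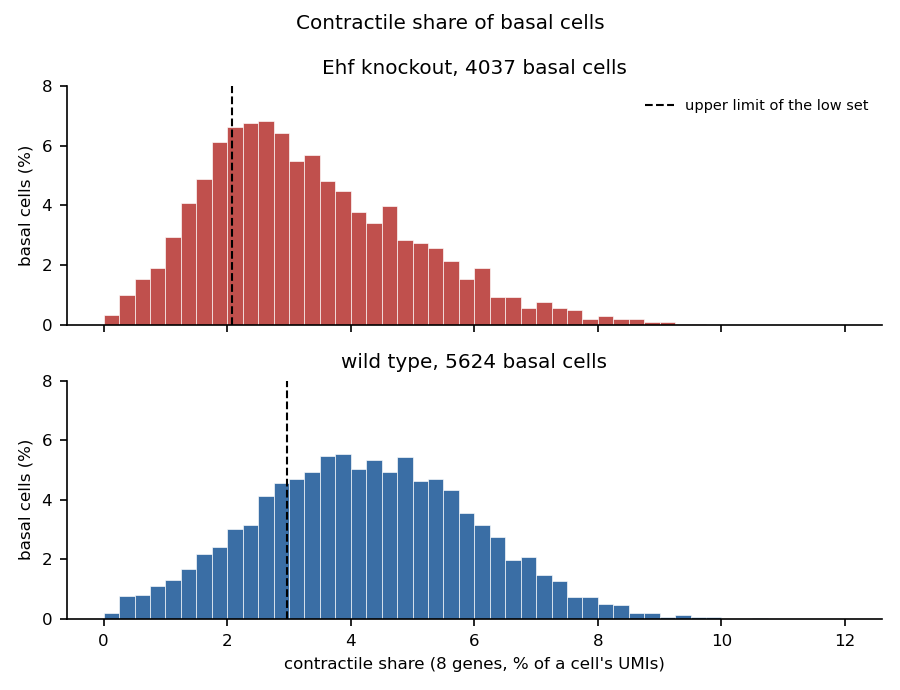
Percent of basal cells (vertical axis) in bins of the contractile share, in percent of a cell's UMIs (horizontal axis), for the knockout (top, 4037 cells) and the wild type library (bottom, 5624 cells). The dashed line is the upper limit of the low set, 2.083% and 2.973%, and each distribution runs through it without a gap.

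When each cell's UMIs were divided at random into equal parts, 79.2% of knockout and 77.0% of wild type cells in the low set by one part were in it by the other, and none fell in the high set. The low set was shallower than the high set, with medians of 3131 against 3785 UMIs per cell in the knockout and 1816.5 against 2195.5 in the wild type. Its median share of mitochondrial UMIs was 0.743% against 0.588%, and 0.583% against 0.513%. Ribosomal protein genes took 13.4% against 10.3% of UMIs in the knockout and 10.8% against 8.69% in the wild type. The part of depth and of these shares in the results below was not tested. In all, the libraries held 40066795 (knockout) and 48720938 UMIs (wild type), and 25 barcodes occurred in both, 2 of them in each low set.

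The low set also held cells that carry RNA of other lineages, more so in the wild type library. Such cells were defined, after the data were seen, by a basal sum under 4 times the luminal sum, a milk protein share over 5 times the basal median of the library, or 2 UMIs of a marker set of another lineage. They were 99 of the 1009 knockout members (9.81%) and 288 of the 1406 wild type members (20.5%), against 3.37% and 2.56% of the high set. Cells with luminal or milk RNA were most of them, at 84 and 246 cells. The basal sum includes Acta2, Myh11 and Mylk, which ranked the cells, so its limit is met more easily in the low set. Median basal sums were 38 UMIs (low) against 139 (high) in the knockout, and 29 against 94 in the wild type. Part of the excess over the high set thus follows from the definition. The 246 wild type cells had a median of 4046.5 UMIs and a median milk share of 16.8%, and supplied 40.6% of all UMIs of the wild type members. Members without such RNA had medians of 1731.5 UMIs and 1.08% milk. The doublet caller Scrublet, at the threshold it set on the wild type library, marked 101 of these 246 cells and 1 of the 1118 wild type members without such RNA. For the knockout library Scrublet set a threshold that marked 1 of 6654 cells, so its own threshold was of no use there. The wild type threshold, taken over for the knockout library, marked 35 of those cells. Among them were 8 of the 84 knockout members with luminal or milk RNA and 0 of the 910 without other-lineage RNA.

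Marker levels of other lineages moved in the same way. Over 8 immune genes the summed level was 64.9 CPM (the sum of UMIs scaled to a common library total) in the knockout and 259 CPM in the wild type low set, against 3.18 and 2.35 CPM in the high set. Over 9 endothelial genes it was 564 and 321 CPM against 13.0 and 12.3 CPM. For 7 fibroblast genes the sums were 62.8 and 207 against 8.82 and 8.81 CPM. Of these markers, Cd3e was at 0 in the wild type low set and none was at 0 in the knockout one. At least 95.3% of members had no UMI of any one of these sets. The counts and main genes below are therefore given for all members and again with cells carrying other-lineage RNA left out before the sets were drawn, which left 968 knockout and 1291 wild type cells in the low set, of which 910 and 1118 were members before.

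Levels below are scaled CPM: UMIs summed over the cells of a library and set, brought to CPM and divided by the median ratio of that profile to the pooled basal profile. Krt14, Il17b, Mgp and Fst were given as the marks of these cells. Each of them was far above luminal cells. For Krt14, part of the basal sum that classed the cells, this follows in part from the rule. Only Mgp was higher in the low than in the high contractile set. After thinning to 1000 UMIs, Krt14 was detected in 71.2% of knockout and 68.6% of wild type members (91.7% and 86.5% unthinned), against 3.71% and 2.02% of luminal cells. Il17b, a cytokine of the interleukin 17 family, was detected in 41.4% and 36.2% against 1.25% and 0.407%. Fst, which codes for the activin inhibitor follistatin, was detected in 19.4% and 16.3% against 0.523% and 0.147%. The luminal cells had medians of 9224.5 and 8913 UMIs before thinning. Against fibroblasts the marks differed: after thinning, Krt14 and Il17b were in at most 0.243% of them, but Fst was in 9.35% (knockout) and 12.9% (wild type). Since Krt14, Il17b and Fst were not higher in the low than in the high set, the cells are called here by their low contractile share.

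Krt14 stood at 1623 scaled CPM in the knockout low set, 1817 in the middle cells and 2338 in the high set, and at 1353, 1720 and 2021 in the wild type. It was 1.44-fold (1.40 to 1.49) and 1.49-fold (1.44 to 1.55) lower in the low than in the high set, or 1.33-fold and 1.19-fold with other-lineage cells left out. Il17b was highest in the middle cells of both libraries, at 1060 scaled CPM against 680 (lowest) and 887 (highest) in the knockout, and 782 against 523 and 723 in the wild type. Fst was at 250, 370 and 356 in the knockout from lowest to highest, and at 174, 249 and 247 in the wild type. Without other-lineage cells, Il17b and Fst of the wild type were 1.01-fold and 1.08-fold lower in the low set, a difference too small to read.

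Mgp (chr6:136872435-136875823, GRCm38.p6), which codes for matrix Gla protein, an extracellular inhibitor of calcification, ran the other way. Its levels from low to high were 707, 516 and 289 scaled CPM in the knockout, and 224, 203 and 145 in the wild type. It was 2.44-fold (2.28 to 2.62) higher in the low set of the knockout and 1.54-fold (1.38 to 1.73) in that of the wild type, or 2.65-fold and 2.03-fold with other-lineage cells left out. Mgp was detected in 44.6% of knockout and 20.7% of wild type members after thinning, against 0.935% and 0.287% of luminal cells. In the 25 knockout and 56 wild type fibroblasts its plain level was 448 and 484 CPM. Trp63, the p63 transcription factor that specifies basal cells, was detected in 10.6% and 11.96% of members and in 13.1% and 12.5% of the high set. Krt5, part of the sum that admitted the cells, was detected in 42.7% and 48.0% of members against 51.8% and 55.9% of the high set. Acta2, which the rule used, was detected in 97.6% and 98.7% of members after thinning, against 14.9% and 8.65% of luminal cells.

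Against the high set, 407 of 8785 genes measured outside the rule (4.63%) were at least 1.5-fold higher in the low set of both libraries, and 545 (6.20%) were at least 1.5-fold lower. In single libraries 8.39% (knockout) and 11.3% (wild type) were higher and 9.95% and 11.1% lower. With other-lineage cells left out, 262 of 8318 genes (3.15%) were higher and 474 (5.70%) lower. Of the 407 genes, 168 (41.3%) were again among those higher, and 383 of the 545 (70.3%) were again among those lower. The share called again was thus larger for the genes lower in these cells than for the genes higher in them.

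C3, Chil1, Slpi, Dclk1 and Cd74 were the genes among the 12 named as highest that stayed at least 1.5-fold higher in both libraries without those cells. C3 (chr17:57203967-57228136, GRCm38.p6), the central component of complement, was at 180 scaled CPM in the knockout low set, 114 in its middle cells and 26.4 in its high set, and at 117, 38.6 and 14.7 in the wild type. It was 6.81-fold (5.54 to 8.44) and 7.94-fold (5.88 to 10.9) higher in the low set, and 7.37-fold and 6.43-fold with other-lineage cells left out. C3 was also present in luminal cells: after thinning it was detected in 14.4% of knockout and 8.55% of wild type members and in 18.5% and 13.0% of luminal cells. It was higher still in fibroblasts, with plain levels of 1017 (knockout) and 963 CPM (wild type) and shares of 45.3% and 43.9% of cells. The fibroblast marker sums were also higher in the low than in the high set, as given above. The C3 ratios without other-lineage cells leave out cells with 2 or more of those marker UMIs, but cells with fewer stayed in. The part of fibroblast RNA in the C3 levels was not tested.

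Chil1, which codes for a secreted chitinase-like glycoprotein, was at 162, 73.0 and 19.8 scaled CPM in the knockout from lowest to highest and at 60.7, 26.2 and 12.3 in the wild type. It was 8.18-fold (6.46 to 10.5) and 4.95-fold (3.52 to 7.11) higher in the low set, and 8.87-fold and 6.44-fold with other-lineage cells left out. Luminal cells had little of it: it was detected in 13.8% and 6.27% of members after thinning, in 1.93% and 1.17% of the high set, and in 1.31% and 0.289% of luminal cells. Among knockout members without other-lineage RNA, Chil1 was detected in 16.4% (10.3 to 24.2%) of cells with a C3 UMI and 13.5% (11.1 to 16.0%) of cells without. In the wild type the shares were 8.91% (4.16 to 16.2%) and 6.88% (5.40 to 8.62%), so the intervals overlapped in both libraries.

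Slpi, a secreted inhibitor of neutrophil proteases, was 5.37-fold (4.24 to 6.87) and 4.32-fold (3.08 to 6.21) higher, and 4.29-fold and 4.27-fold with other-lineage cells left out. Dclk1, a microtubule-associated kinase, was 3.91-fold (3.14 to 4.90) and 4.68-fold (3.43 to 6.51) higher, and 4.16-fold and 5.22-fold with those cells left out. Cd74, the invariant chain of class II antigen presentation, was 5.14-fold higher in the knockout and 88.6-fold in the wild type, which fell to 3.73-fold and 8.24-fold. Cd74 is an abundant transcript of immune cells, but it was not among the 8 immune genes by which other-lineage cells were defined. Of the 9 genes of the immune list it alone still reached 100 UMIs once those cells were left out. This follows in part from the definition and is no finding.

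For the other 7 named genes the excess was smaller once the other-lineage cells were left out. Wfdc12 was 38.9-fold and 31.6-fold higher in the low set, and 1.82-fold and 1.34-fold with those cells left out. Its plain level was 2301 CPM in the knockout members with luminal or milk RNA and 14.2 CPM in members without other-lineage RNA, and it was 2386 CPM in knockout luminal cells. Fabp4, a fatty acid carrier of fat and capillary cells, was 48.8-fold and 31.5-fold higher, and then, on 11 and 20 UMIs in the low sets, 1.21-fold higher in the knockout and 1.25-fold lower in the wild type. The osteopontin gene Spp1, with Cd36, Fabp3, Wfdc18 and Trf (transferrin), also shrank, and for Cd36, Fabp3 and Wfdc18 the difference changed sign in both libraries. Trf had log2 ratios of 0.99 and 0.27 against 1.87 and 3.13 before.

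**Figure D2:**
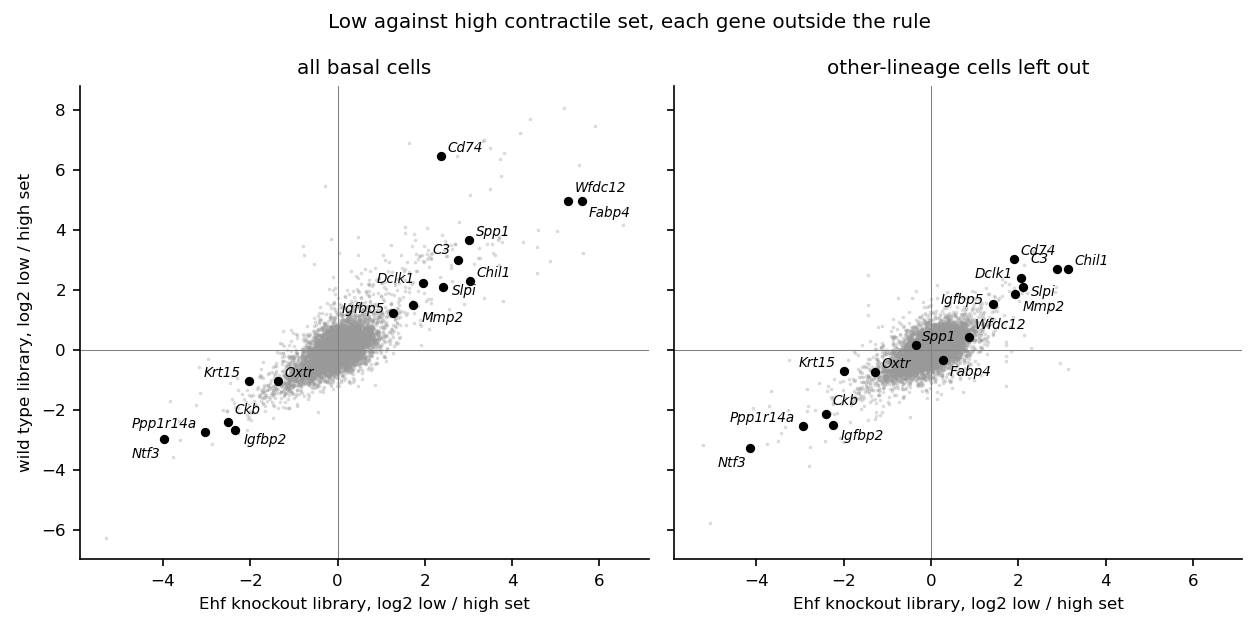
Log2 ratio of the low to the high contractile set for each gene outside the rule in the knockout library (horizontal) and the wild type library (vertical), with all basal cells (left) and with other-lineage cells left out (right). C3, Chil1, Slpi, Dclk1 and Mmp2 keep their place at the upper right, while Wfdc12, Fabp4 and Spp1 move to the centre.

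Further genes came from gene lists, whose counts stand beside 4.63% higher and 6.20% lower over all genes, or 3.15% and 5.70% with other-lineage cells left out. Igfbp5 (chr1:72858065-72874865, GRCm38.p6), a secreted protein that binds insulin-like growth factors, was at 2468, 1916 and 1023 scaled CPM from lowest to highest in the knockout, and at 1640, 1253 and 701 in the wild type. Its log2 ratio without other-lineage cells rose from 1.27 to 1.41 in the knockout and from 1.23 to 1.53 in the wild type. Fibroblasts had plain Igfbp5 levels of 3819 and 2030 CPM. Its family member Igfbp2 ran in the opposite direction and is next to it on chromosome 1, ending at 72852474. Igfbp2 was at 260, 566 and 1329 scaled CPM in the knockout and at 170, 465 and 1073 in the wild type, 5.11-fold (4.77 to 5.47) and 6.33-fold (5.81 to 6.91) lower in the low set. Igfbp4 and Igfbp6 were lower as well, so that of 11 measured genes of the IGF axis 1 was higher and 3 were lower in both treatments of the data.

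Among 11 measured matrix and matricellular genes, 4 were higher and 4 lower. Mmp2, a gelatinase that degrades collagen, had log2 ratios of 1.73 and 1.49 (1.92 and 1.85 with other-lineage cells left out), and Fbln2 (fibulin 2) had 1.38 in both libraries (1.55 and 1.72). Both are also fibroblast transcripts here, with plain levels of 809 and 1085 CPM for Mmp2 and 522 and 636 CPM for Fbln2 in those cells. Sparcl1 was also higher, at 21.2 and 13.2 scaled CPM, but had no UMI in either low set once those cells were left out. Postn (periostin), which binds collagen and integrins, was lower by log2 ratios of -1.78 and -1.56.

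Of 13 measured basement membrane genes, 1 was higher and 4 were lower. Lama5, the laminin alpha 5 chain, was at 25.6 and 28.3 scaled CPM against 11.8 and 13.2 in the high set, while Lama1, the alpha 1 chain, had log2 ratios of -0.94 and -1.18. Lamc1 and Lamb1, which pair with an alpha chain in the laminin trimer, were lower too, at -0.69 and -0.92 for Lamc1 and -0.68 and -0.95 for Lamb1. With other-lineage cells left out, 1 gene was higher and 2 were lower, which in so few genes is near the 3.15% and 5.70% of all genes and is not read as a result about the list.

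The Wnt list had 2 of 22 measured genes higher and 3 lower, and the Notch list 1 of 6 higher and 1 lower. With other-lineage cells left out the Wnt list had 2 higher and 2 lower, and the Notch list 1 higher and none lower. Over all genes 4.63% were higher and 6.20% lower. Counts in so few genes are not read as results about the lists, so only single genes are described. Rspo1, a secreted amplifier of Wnt signalling, was at 30.2 (knockout) and 18.7 (wild type) scaled CPM in the low set against 13.3 and 7.67 in the high set. Sfrp2, a secreted Wnt modulator, had 18.6 and 11.0 against 7.53 and 2.46. Wnt6 went the other way, at 28.7 and 29.1 against 93.1 and 103. For the receptor Notch1 the levels were 42.6 and 45.9 against 14.1 and 19.3, and for the Notch ligand Dll1 162 and 148 against 252 and 282. Dll1 no longer passed 1.5-fold in both libraries with other-lineage cells left out.

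MHC class I genes, which present peptides to T cells, were mostly higher in the low set. Of 9 measured, 5 were at least 1.5-fold higher in both libraries (H2-K1, B2m, Tap2, Psmb8 and Nlrc5) and none lower, with medians of 0.66 and 0.67 on the log2 scale. Without other-lineage cells, 3 were higher and the medians were 0.57 and 0.69. H2-K1, a class I heavy chain, was at 625 (knockout) and 795 (wild type) scaled CPM in the low set against 347 and 428 in the high set. Interferon-stimulated genes did not show this: of 10 measured none was higher and 1 lower, with medians of -0.20 and 0.14. Over all genes outside the rule the medians were 0.01 and 0.00.

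The 12 named genes lowest in these cells were Ntf3, Ppp1r14a, Ckb, Dmpk, Igfbp2, Fbxl22, S100a4, Sh3bgr, Synm, S100a6, Prss23 and Cav1, and all stayed lower with other-lineage cells left out. Ntf3, which codes for the nerve growth factor relative neurotrophin 3, was at 3.62, 13.4 and 56.7 scaled CPM in the knockout from lowest to highest and at 8.24, 26.5 and 65.1 in the wild type. It was 15.7-fold (9.16 to 29.2) and 7.90-fold (5.37 to 11.99) lower in the low set, from 14 knockout and 30 wild type UMIs. Ppp1r14a, an inhibitor of myosin phosphatase that sustains smooth muscle contraction, was 8.23-fold (7.24 to 9.40) and 6.65-fold (5.91 to 7.50) lower. Ckb (creatine kinase B), which buffers ATP, was 5.71-fold (5.27 to 6.19) and 5.32-fold (4.86 to 5.82) lower. Synm (synemin, an intermediate filament protein of muscle) and Cav1 (caveolin 1) were 5.13-fold and 4.31-fold lower in the knockout, and 3.75-fold and 3.36-fold in the wild type. The calcium-binding S100a6 was at 550 and 1419 scaled CPM against 2243 and 5034 in the high set.

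Contraction genes that the rule did not use were lower along with those that it did. Of 23 measured further smooth muscle genes, 22 were at least 1.5-fold lower in both libraries and none was higher, with medians of -1.21 and -1.27 on the log2 scale, against -1.07 and -0.89 with other-lineage cells left out. Cald1 (caldesmon) was at 798 and 1129 scaled CPM in the low set against 2786 and 3240 in the high set. Of 13 measured genes of oxytocin and calcium signalling, 3 were lower and 1 was higher. The oxytocin receptor Oxtr was at 146, 202 and 373 scaled CPM in the knockout from lowest to highest and at 308, 476 and 634 in the wild type, log2 ratios of -1.36 and -1.04 (-1.27 and -0.74 with other-lineage cells left out). The calcium release channel gene Itpr2 was the higher one, at 22.7 and 20.9 against 9.29 and 5.83.

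Of 9 measured regulators and targets of SRF and of the mechanical sensor YAP, 4 were lower and none was higher: Tead1, a DNA-binding partner of YAP, and Ccn1, Ccn2 and Zyx. Only 2, Ccn1 and Ccn2, were lower with other-lineage cells left out. Basal identity genes outside the rule had 3 of 13 lower (Krt15, Col17a1 and Itgb1) and none higher. Krt15, a keratin of basal epithelia, was at 142 scaled CPM against 578 in the knockout and 286 against 590 in the wild type. Of 19 nuclear genes of the respiratory chain none was 1.5-fold lower or higher in both libraries, with medians of -0.53 and -0.25, but 7 were lower with other-lineage cells left out, where the medians were -0.58 and -0.64. No p53 target (of 8) or DNA replication gene (of 11) passed 1.5-fold in both libraries in either treatment. Of 16 immediate early genes none passed with all cells, and 1 was higher with other-lineage cells left out.

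Milk protein genes and most luminal genes were higher in the low set with all members counted. All 8 milk genes were higher, with log2 medians of 2.97 and 3.44, and of the 7 still measured without those cells none was, with medians of -0.03 and -0.04. Luminal genes outside the rule had 6 of 10 higher and 1 lower, and then 1 of 7 in each direction. The cells left out were defined in part by their milk and luminal RNA, so that the fall of these lists follows from the definition and is no finding. Epcam, an adhesion gene that luminal cells express strongly, remained above: its plain level was 243 and 163 CPM in members without other-lineage RNA and 132 and 72.9 CPM in high set cells without it. In knockout luminal cells it was 1049 CPM.

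Lists of other lineages had few measured genes and went both ways. With all cells, the 7 measured immune genes were all higher, with medians of 3.50 and 6.47, as was Cdh5, the 1 endothelial gene measured. Of 5 fibroblast genes Col1a1 and Col1a2 were higher and Dcn and Fbn1 lower, with medians of -0.70 and 0.79. The 2 pericyte genes had -1.31 and -0.73. The other-lineage cells were defined in part by such markers. Without them, the 3 fibroblast genes still measured had medians of -1.48 and -1.13.

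**Figure D3:**
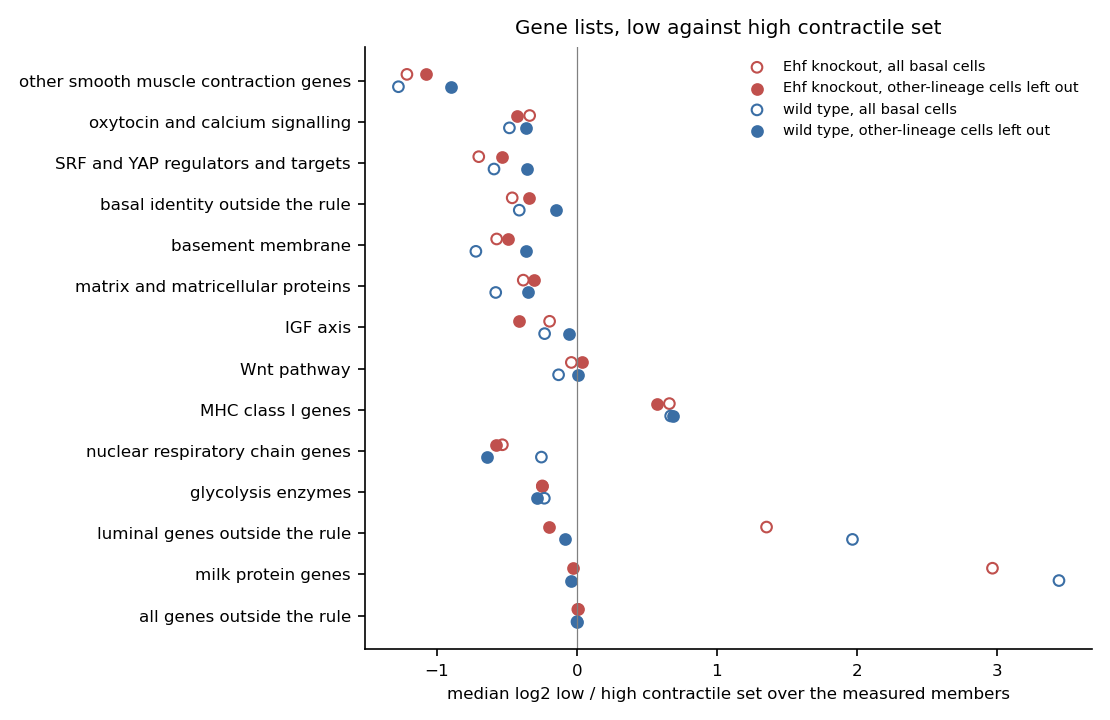
Median log2 ratio of the low to the high contractile set over the measured members of each gene list, in the knockout (red) and the wild type library (blue), with all basal cells (open) and with other-lineage cells left out (filled). Of the lists plotted, smooth muscle genes lie furthest left in both treatments, MHC class I genes lie near 0.6, and milk and luminal genes, on which the definition of other-lineage cells rests in part, lie near 0 when those cells are left out.

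Along 10 equal bins of cells ordered by contractile share these genes changed by degrees, with no step at the limit of the low set. With other-lineage cells left out, Igfbp5 in the knockout went from 3022 scaled CPM in the lowest bin to 734 in the highest, and Igfbp2 from 171 to 1836. Chil1 went from 243 to 9.83 and Mgp from 847 to 213. In the wild type Igfbp5 went from 2260 to 587, Igfbp2 from 130 to 1306, and Mgp from 341 to 124. Il17b had its lowest value of the knockout range in the lowest bin, at 584, and stayed between 827 and 1131 in the other bins. In the wild type the course of Krt14 depended on the other-lineage cells: its lowest bin was at 1062 with all cells and at 1743 without them, against 1689 and 1738 in the next bin. In that lowest wild type bin 38.9% of cells carried other-lineage RNA.

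**Figure D4:**
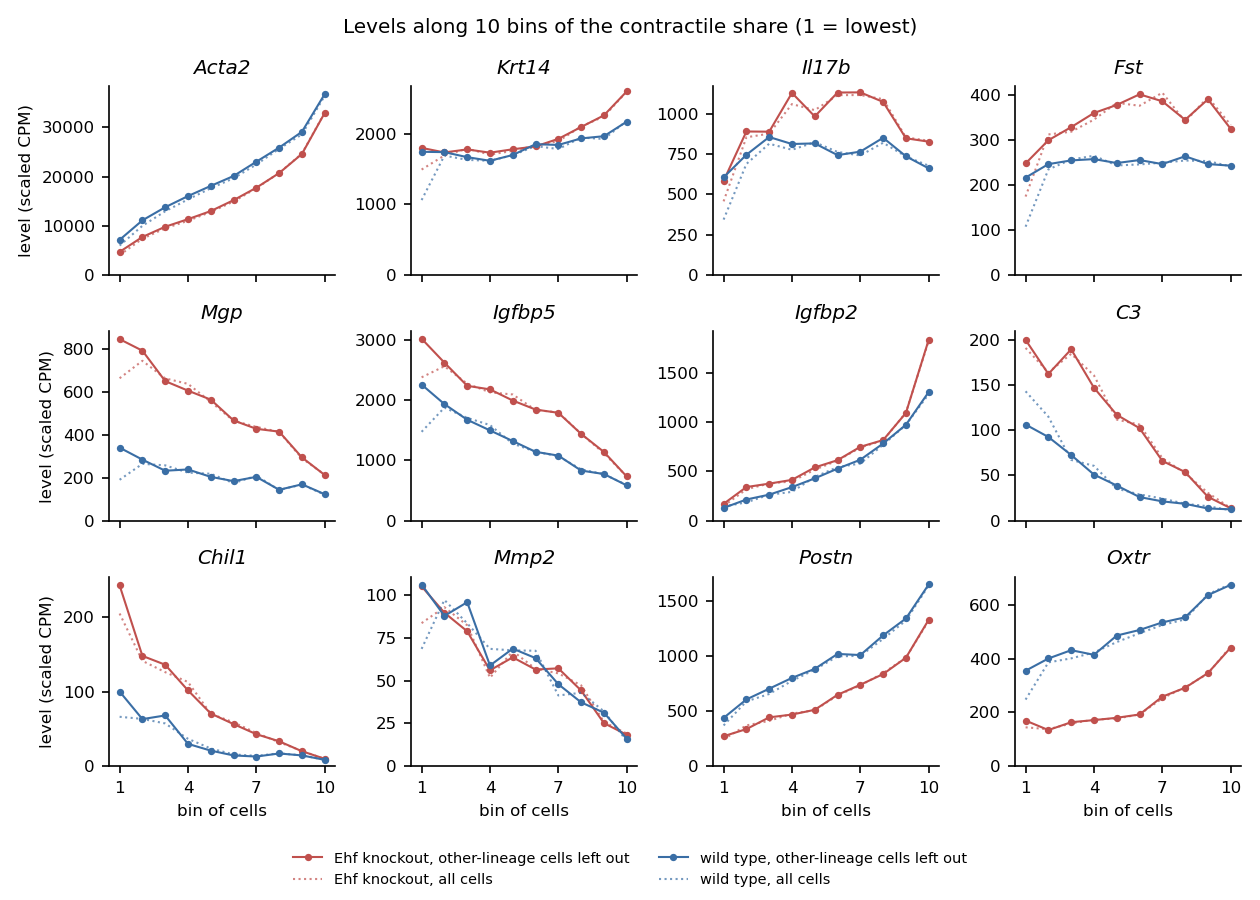
Level in scaled CPM (vertical) of 12 genes in 10 equal bins of the basal cells ordered by contractile share (horizontal, 1 is the lowest), in the knockout (red) and wild type library (blue), with all cells (dotted) and with other-lineage cells left out (solid). Acta2, Igfbp2, Postn and Oxtr climb, Mgp, Igfbp5, C3, Chil1 and Mmp2 decline, and Il17b and Fst are lowest at the left end.

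Between genotypes, the targeted gene was checked first. Ehf was at 7.75 scaled CPM (30 UMIs) in the knockout and 44.8 (163 UMIs) in the wild type low set, 5.78-fold (3.90 to 8.84) lower, and at 2.51 and 10.7 in the high set. It was not absent from the knockout library: luminal cells there held 78.8 CPM against 116 CPM in the wild type. These counts are 3' tags, and where they lie relative to the deletion is not given, so they check the label only in part. Ehf was 2.86-fold lower in the low set of the knockout without other-lineage cells, on 14 against 31 UMIs, too few to count as measured. Its plain level in wild type members was 81.7 CPM with luminal or milk RNA and 11.0 CPM without other-lineage RNA. In knockout members these levels were 31.7 and 4.32 CPM.

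In the low set 383 of 6764 measured genes (5.66%) were at least 1.5-fold higher in the knockout and 591 (8.74%) lower. On plain CPM, which moves the median of all genes by 0.20 on the log2 scale, the counts were 934 higher and 349 lower, so the balance of directions rests on the scaling. Without other-lineage cells, 336 of 5996 (5.60%) were higher and 323 (5.39%) lower. Wif1, a secreted Wnt inhibitor, stood among the most raised at 113 scaled CPM in the knockout against 25.3 in the wild type, 4.48-fold (3.57 to 5.67). Pappa, a protease that frees IGF from its binding proteins, was at 95.1 against 22.0, 4.32-fold (3.39 to 5.58). With other-lineage cells left out the folds were 3.90 and 4.71.

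Mgp was at 707 against 224 scaled CPM, 3.15-fold (2.91 to 3.41) higher in the knockout, or 2.65-fold with other-lineage cells left out. Fbln2 was 2.87-fold (2.44 to 3.39) and Chil1 2.67-fold (2.29 to 3.13) higher, or 2.49-fold and 2.29-fold. Id3 and Id4, inhibitors of basic helix-loop-helix factors that BMP signals can raise, were 2.69-fold (2.22 to 3.26) and 2.65-fold (2.29 to 3.09) higher, and Ppp1r14b and Tmem158 2.66-fold (2.16 to 3.29) and 2.54-fold (2.11 to 3.08). Calca was 6.85-fold higher, but its plain level in the knockout was 492 CPM in members with luminal or milk RNA and 2.16 CPM in members without other-lineage RNA. Krt14, Il17b and Fst were 1.20-fold, 1.30-fold and 1.44-fold higher in the knockout, under the 1.5-fold rule. With other-lineage cells left out their log2 ratios were only 0.06, 0.10 and 0.28.

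The 10 named genes lowest in the knockout were Cidea, Spp1, Slc34a2, Lao1, Slc28a3, Chrdl2, Lpl, Btn1a1, Pigr and Fabp3. Several serve milk secretion: Btn1a1 (butyrophilin) and Cidea act on milk fat, Lpl (lipoprotein lipase) frees fatty acids, and Pigr carries antibodies into milk. Spp1 was at 58.9 against 3061 scaled CPM, 52.0-fold (45.6 to 59.5) lower, and Btn1a1 at 23.8 against 384, 16.2-fold (13.1 to 20.2) lower. These genes moved with milk RNA: all 8 milk genes were lower in the knockout, and milk took 0.988% of the members' UMIs in the knockout against 12.1% in the wild type. They were also lower in the high set, by 33.4-fold for Spp1 and 7.77-fold for Btn1a1, and by 55.6-fold and 7.57-fold in the low set with other-lineage cells left out. In the high set 2.48% (knockout) and 2.20% (wild type) of cells met the limits set for luminal or milk RNA. Yet every wild type cell of that set held a milk UMI, with a median of 21, and the part of milk RNA in these ratios was not tested. In the high set the median cell still gave 0.0996% (knockout) and 0.959% (wild type) of its UMIs to milk genes.

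Of the 8 contractile genes, which chose the cells, 1 was 1.5-fold lower in the knockout, Myh11. Of 22 further smooth muscle genes, 4 were lower and none was higher (7 and none with other-lineage cells left out), with a median of -0.30. Of 13 basal identity genes 2 were lower (Krt15 and Dst) and 1 was higher (Id4), with a median of -0.18, near the 8.74% and 5.66% of all genes. Oxtr stood at 146 scaled CPM against 308 (log2 ratio -1.08), Krt15 at 142 against 286 (-1.01) and S100a6 at 550 against 1419 (-1.37). The knockout set also lay at lower contractile shares, as given above, and its part in these values was not tested. Secreted signals had 5 of 13 higher (Wif1, Cxcl12, Ccl2, Pthlh and Vegfa) and none lower.

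**Figure D5:**
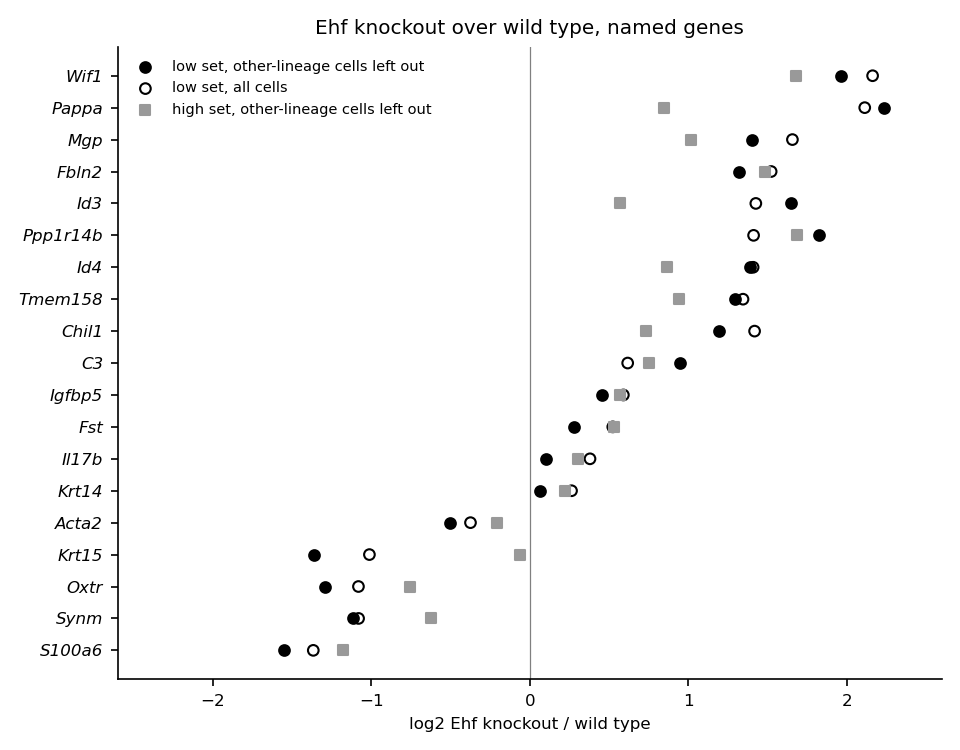
Log2 ratio of the knockout to the wild type level (horizontal) for 19 genes in the low contractile set with all cells (open circles) and with other-lineage cells left out (filled circles), and in the high set with those cells left out (grey squares). Wif1, Ppp1r14b and Fbln2 lie right of 1 in both sets, Pappa, Id3 and Krt15 are further from 0 in the low set, and S100a6 lies left of -1 in both.

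The genotype ratio differed at least 2-fold between the low and the high set for 16 of 6181 genes (0.259%) upward in the low set and 59 (0.955%) downward. Pappa was 4.32-fold higher in the knockout in the low set and 1.72-fold in the high set, so its ratio was 2.52-fold (1.79 to 3.54) larger in the low set. Col9a2, Tceal5 and Mettl9 were the other genes named by this difference upward, with ratios 1.89-fold, 1.87-fold and 1.86-fold larger, under that 2-fold rule. Xdh, Acsl1 and Lipa had ratios 4.38-fold, 5.05-fold and 4.21-fold smaller in the low set. Xanthine dehydrogenase, the product of Xdh, takes part in milk fat secretion, and Acsl1 activates fatty acids. With other-lineage cells left out, the difference of the log2 ratios between the sets was -1.10 for Xdh, -1.27 for Acsl1 and -0.43 for Lipa. Lipa thus no longer passed the 2-fold rule. Xdh had 21 (knockout) and 74 UMIs (wild type) in those low sets, too few to count as measured.

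Basal cells set aside for Igfbp3 had some levels nearer the low set and others nearer the middle cells. In the knockout library these 1381 cells had a median contractile share of 2.63%, between the low set and the middle cells, and in the wild type library 660 cells had 3.79%. Their C3, Chil1 and Igfbp5 levels in the knockout, at 149, 107 and 2360 scaled CPM, lay above the middle cells for each of the 3 genes and below the low set (180, 162 and 2468). Their Mgp, at 469, lay below the middle cells (516), away from the low set (707), and their Igfbp2 and Oxtr, at 578 and 230, lay above the middle cells (566 and 202) and the low set (260 and 146). Cycling basal cells (201 knockout, 257 wild type) also had low contractile shares, with medians of 2.07% and 2.49%, but their Igfbp5 was 901 and 576 scaled CPM and their Chil1 35.7 and 7.89.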

How the data were processed

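The matrices deposited by the authors hold raw UMI counts, as integers for every gene in every barcode, from the 10x Chromium Single Cell 3' version 3 kit. GRCm38 (mm10) and Seurat 4.0.4 appear in the submitters' processing notes. Neither an aligner nor a rule for keeping barcodes is given in the sources used here, and no removal of doublets or free RNA is described. Of 27179 features, 1314 had no symbol and were left out, with 1.74% of knockout and 1.36% of wild type UMIs.

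Cells were filtered and classed by the sums of UMIs given in the report. UMIs were summed per library and set and scaled by the median ratio to the pooled basal profile over genes with at least 50 UMIs. Genes with at least 100 UMIs over the sums compared counted as measured. Ratios carry exact conditional 95% intervals, and a sum of 0 was set to 3 counts. Unless another depth is named, shares of cells are expected values after thinning to 1000 UMIs, with which no member was lost. No count test was run, because each genotype has 1 library. Doublets were scored with Scrublet in scanpy 1.11.5 and left in, except in alternatives. The members, gene lists and alternatives were chosen with earlier results of these data known.

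Named genes were, among genes with at least 50 scaled CPM, the 12 highest and 12 lowest in both libraries between sets, the 10 highest and 10 lowest between genotypes, the 4 highest and 4 lowest in the difference of the 2 contrasts, the marks of the cells, and up to 4 genes per list. The sign had to hold on plain CPM and with equal weight per cell, and milk, mitochondrial, ribosomal protein, predicted, haemoglobin and immunoglobulin genes and those of the rule were left out of the first 3. The ratio and scaling steps were tested on simulated counts. Alternatives varied the scaling, minimum counts, cell filters, the limits of the sets and the treatment of doublets, and 2 were added after the data were seen.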

Additional observations from a re-analysis of the deposited data

Results flagged for a closer look

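Cxcl2, a neutrophil-attracting chemokine, went opposite ways in the 2 libraries. It was at 22.2 scaled CPM in the low and 37.9 in the high set of the knockout library, a log2 ratio of -0.77, and at 163 and 18.1 in the wild type, a log2 ratio of 3.17. The difference between the libraries' ratios was -3.94, and equally the knockout over wild type ratio was -2.88 in the low and 1.07 in the high set. The difference was not tested, since each genotype has 1 library. With cells carrying other-lineage RNA left out, the ratios between sets were -0.85 and 0.45.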

How the results depend on the processing

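No paired analysis was possible because each genotype has 1 library, and for the same reason no library could be left out. Of single-gene ratios under the alternatives, 4645 stayed within the spread allowed, 1020 moved and 24 changed sign. Counts of genes past 1.5-fold or 2-fold moved with the scaling and the minimum. On plain CPM the low set had 934 genes higher and 349 lower in the knockout, and on CPM outside contractile genes 909 and 354, and the genotype ratio differed between sets for 47 genes upward and 33 downward under both. With equal weight per cell 26 differed downward. A minimum of 50 UMIs gave 648 genes higher in the low set, 602 higher and 941 lower in the knockout, and 55 and 146 differing ratios. A minimum of 300 UMIs gave 165 higher and 361 lower in the low set, 177 and 242 between genotypes, and 1 and 13 differing ratios. Downward differing ratios numbered 100 among cells with at least 2000 UMIs, and 19 without doublets called at the wild type threshold in both libraries. They numbered 91 for the outer 10% of cells at each end, and 139 (39 upward) with 1 limit for both libraries. Ranking on one part of the UMIs and measuring on the other gave 247 higher in the low set, 373 lower in the knockout and 8 ratios differing upward. Leaving out other-lineage cells, an alternative chosen after seeing the data, gave 262, 323 and 22 (downward).

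Shares of low set cells with a UMI moved with depth. Unthinned, Krt14, Il17b, Mgp and Fst were detected in 91.7%, 68.8%, 73.6% and 41.8% of knockout and 86.5%, 53.4%, 35.3% and 29.8% of wild type cells. At 2000 UMIs they were in 86.5%, 60.0%, 63.9% and 30.4%, and 79.5%, 46.3%, 30.4% and 25.2%, of the cells with at least that depth. The wild type low set had a median of 1816.5 UMIs, so most of its cells were left out there. From the held-out part of the UMIs the shares were 44.2%, 22.3%, 22.8% and 9.79%, and 40.9%, 19.95%, 10.1% and 7.06%. These held-out shares were taken at a lower depth than all other shares given here, since that part holds fewer UMIs per cell. Their fall therefore includes the effect of depth, and the effect of ranking on separate UMIs cannot be read from it. In the lowest 10% of cells Krt14, Il17b and Fst were in 67.5%, 33.0% and 15.1%, and 60.3%, 27.7% and 10.2%. In the wild type without other-lineage cells they were in 74.0%, 40.9% and 18.4%, and with a basal sum at least 4 times the luminal sum Krt14 and Il17b were in 72.0% and 39.1%.

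Sign changes among log2 ratios of the low to the high set that had passed 1.5-fold, over genes named by that contrast or by a list and still measured under the alternative, were these. With equal weight per cell, Bst2 was -0.14 in the wild type. With a basal sum at least 4 times the luminal sum, the knockout had Spp1 -0.62, Wfdc18 -0.41, Fabp3 -0.53, Cldn7 -0.016, Glycam1 -0.96, Csn1s2b -0.19 and Sdf2l1 -0.11. With other-lineage cells left out, Cd36 was -0.96 (knockout) and -0.065 (wild type), Wfdc18 -0.073 and -0.069, Fabp3 -0.81 and -0.10, Cldn7 -0.22 and -0.23, and Glycam1 -0.25 and -0.11. Spp1 (-0.35) and Sdf2l1 (-0.019) changed sign in the knockout, and Id1 (-0.051), Elf5 (-0.25), Wap (-0.18) and Bst2 (-0.47) in the wild type. Outside those conditions Fabp4 (-0.32 in the wild type), Lpl (-1.12 and -0.088), Hes1 (-0.38 and -0.83) and Id3 (-0.28 in the wild type) were among further genes that changed sign with those cells left out. The cause was not tested.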
